A study of Homo sapiens with 6 samples.

Results

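The 3′ ends of transcripts were examined at 10 genes of catecholamine synthesis, storage and nicotinic signalling in IMR-32 cells. The genes were TH, DDC, DBH, SLC18A1, SLC18A2, CHGA, CHGB, CHRNA3, CHRNA5 and CHRNB4. A peak was counted when its summit lay in the Gencode gene body of a member or up to 4000 bp past its 3′ end, which took 81 of the 200023 peaks in the list. IMR-32 is an established human neuroblastoma line, so all values come from a single tumour line in culture. Poly(A) 3′-seq, in which each read starts where a transcript meets its poly(A) tail, was performed on 6 libraries. They comprised 2 biological duplicates given the solvent DMSO, 2 given THZ531 at 400 nM for 2 h and 2 given THZ531 at 400 nM for 6 h. THZ531 binds CDK12 and CDK13 covalently and blocks these kinases, and how long each DMSO culture was incubated is not given per sample. Peaks were called once on the merged reads, with no strand and no value per library. DMSO and THZ531 could therefore not be compared, and no value below has a replicate error or a test.

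Neuroblastoma arises from sympathetic precursors, which make noradrenaline from tyrosine in a short chain of enzymes and store it in dense-core granules. TH turns tyrosine into L-DOPA and limits the rate of the chain, DDC removes the carboxyl group to give dopamine, and DBH makes noradrenaline from dopamine inside the granule. SLC18A1 and SLC18A2 are the vesicular monoamine transporters, CHGA and CHGB are acidic granins that fill the granules, and CHRNA3, CHRNA5 and CHRNB4 are subunits of the ganglionic acetylcholine receptor that triggers release.

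Of the 81 peaks, 60 passed the study's cutoff, a −log10 q of at least 5, and 21 did not. At least 1 peak past the cutoff was found in 9 of the 10 genes, against 76.9% of all protein-coding genes. The nicotinic genes held 35 of the 60 (58.3%). Because CHRNA5 and CHRNA3 converge on chromosome 15, 8 of the 60 peaks lay in the windows of both, so the 60 peaks made 68 combinations of a gene and a peak. Height is given as reads at the summit, the number of reads, each extended to 100 bp, that overlapped the summit. The peak caller by default keeps 1 read per start and strand, so this height counts distinct read starts and is not an expression level. In the whole list it ran from 3 to 200 reads.

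A transcript-end peak had its summit between 200 bp before and 600 bp after any annotated transcript end of its gene. Such a peak past the cutoff was found in 8 of the 10 genes, against 64% of all 20020 protein-coding genes. SLC18A1 and SLC18A2, the transporters, were the 2 without one. An end of the canonical transcript itself had a peak in 6 of the 10 genes, against 10717 of all 20020 protein-coding genes. The 3′ edge of the peak, where cleavage would lie, fell 2 bp past the annotated end in TH, 4 bp in DDC, 5 bp in DBH, 9 bp in CHGB, 18 bp in CHGA and 309 bp in CHRNB4. Among the 10717 protein-coding genes with a peak at the canonical end, 70.5% had the edge within 20 bp of it, with a median distance of 5 bp.

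These edges were set beside the polyadenylation signal, a hexamer that directs cleavage a short way downstream. The lines below give 30 bases of the GRCh38 reference for the 6 canonical ends and for the longer CHRNA3 end. They are shown because the list has no strand, and these are the signals on the strand of each gene. Bases read 5′ to 3′ on the strand named, and the capitals mark the hexamer.
TH end (chr11:2163925-2163954, minus strand): cacAATAAAagaaactgtggtctctacacc
DDC end (chr7:50458435-50458464, minus strand): cctAATAAAcaattcaagtgaaatactaat
DBH end (chr9:133659302-133659331, plus strand): gccAATAAAgctcacacttgggctggcacc
CHGA end (chr14:92935260-92935289, plus strand): aaaAATAAAtctgttctgggctctttcctc
CHGB end (chr20:5925333-5925362, plus strand): aatAATAAAagattcacctgagaccaaaag
CHRNB4 end (chr15:78623800-78623829, minus strand): tacAATAAAattgacttttaaatatatagt
CHRNA3 longer end (chr15:78593052-78593081, minus strand): aaaAATAAAaatgcattaaataattgtaaa
All 7 hexamers were the canonical AATAAA. It started 24 bp before the 3′ edge in TH, 23 bp in DDC, 29 bp in DBH, 26 bp in CHGB, 24 bp in CHRNB4 and 26 bp in CHRNA3. In CHGA it started 40 bp before the edge. Other hexamers on the gene strand were AAGAAA at 19 bp in TH, AAGAAA at 46 bp in CHGA, ATTAAA at 15 bp in CHRNA3 and AATATA at 7 bp in CHRNB4. The DDC peak also had hexamers before its opposite edge on the other strand, ATTAAA at 23 bp and AATAAA at 14 bp. AATAAA between 15 and 35 bp before the edge was thus present at 5 of the 6 canonical ends, against 50% of the 10717 genes with such a peak. This range, called the usual distance below, was chosen after the values were seen.

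A second set of sequences comes from peaks inside the genes. The CHGA, CHGB and CHRNA5 sites are read on the strand of their gene. The others are read on the opposite strand, where another transcript is annotated to end past the peak edge. In the order printed, that end lay 5, 188 and 1 bp past the edge.
CHGA intron 3 (chr14:92926936-92926965, plus strand): caaAATAAAaccagggctgaaacagcaagc
CHGB intron 1 (chr20:5913144-5913173, plus strand): ttaAATAAAagtttatattttaatagcagc
CHRNA5 intron 5 (chr15:78591588-78591617, plus strand): cagAATAAAtctggcaaaatcacagccttt
SLC18A2 intron 12, opposite strand (chr10:117267119-117267148, minus strand): tgtAATAAAacatcaacaaactcaaacgta
SLC18A2 last exon, opposite strand (chr10:117277461-117277490, minus strand): taaAATAAAgtttcaacactatttatacaa
CHRNA5 intron 4, opposite strand (chr15:78589123-78589152, minus strand): gaaAATAAAatgatgctccaggaagctgca
The peaks behind these lines are described with their genes.

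**Figure D1:**
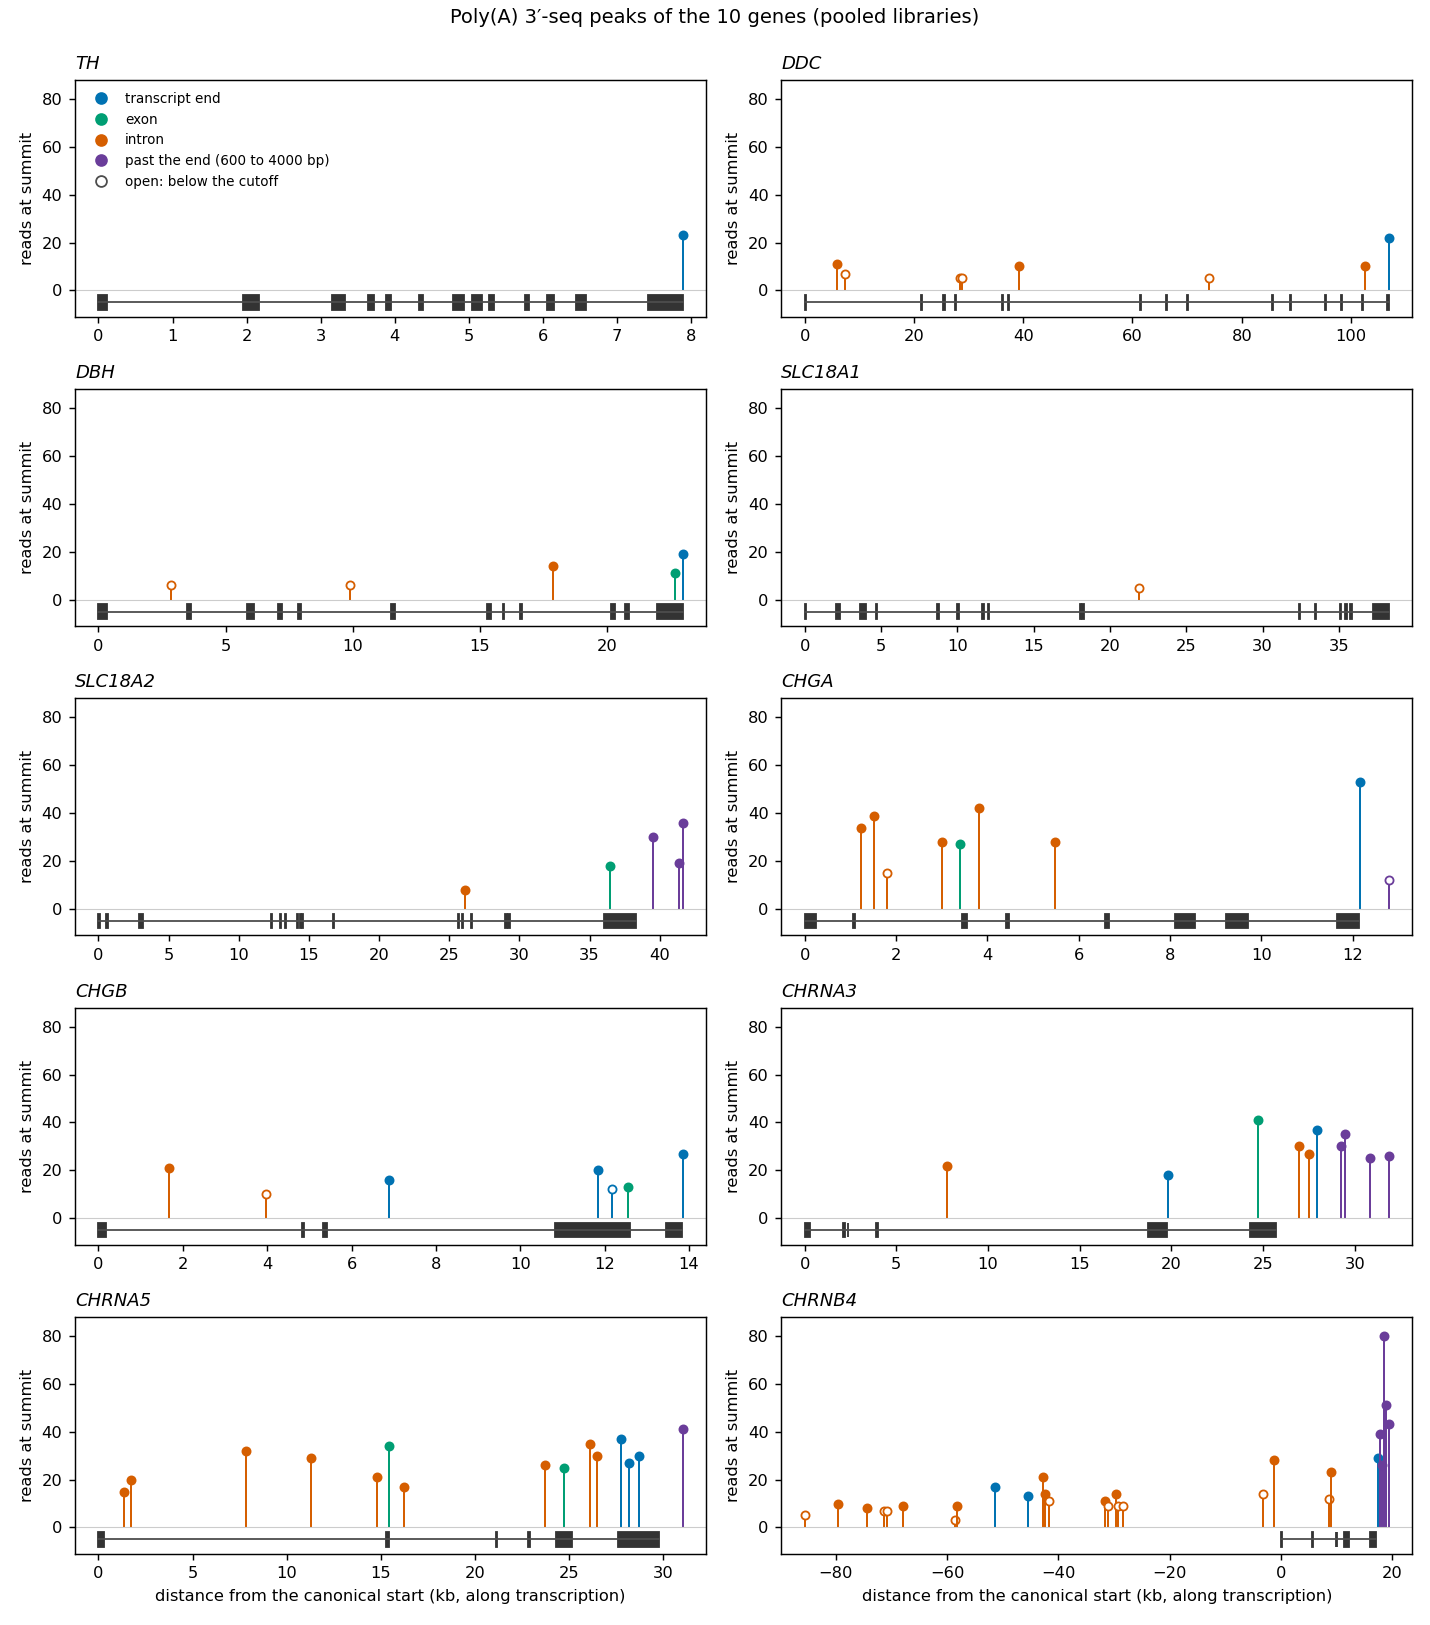
Peaks of each member gene. The x axis is the distance from the canonical transcript start in kb along transcription, the y axis is reads at the summit, black boxes are exons of the canonical transcript, colours give the class of the peak and open circles did not pass the cutoff. TH has 1 peak, CHGA has intronic peaks near its start, and the tallest peak of all, with 80 reads, lies past the CHRNB4 end.

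TH had the simplest pattern of the 10 genes. The gene (ENSG00000180176.15, chr11:2163929-2171815, minus strand) is 7.887 kb long, has 12 introns and held a single peak in the whole list, at its annotated end. This peak (chr11:2163927-2164040) had 23 reads at the summit, and 79 reads lay in the 10000 bp around it. No intronic peak was listed, even below the cutoff, while 861 detected genes of similar length (at least 4/5 and at most 5/4 as long) had a median of 0 intronic peaks and quartiles of 0 and 1. Detected here means a gene with a transcript-end peak past the cutoff. TH is GC-rich at 65.3%, against a median of 44.9% over detected genes, and its gene body holds 1 AATAAA.

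DDC is far longer, 107 kb (ENSG00000132437.18, chr7:50458436-50565405, minus strand), and had few intronic peaks for that length. Its end peak (chr7:50458438-50458903) had 22 reads, close to TH. There were 3 intronic peaks past the cutoff, with 11 reads in intron 1, 10 in intron 6 and 10 in intron 14. None of these had a hexamer on the DDC strand in the 100 bp before the 3′ edge. The intron 14 peak had 22 A among 25 bases within 50 bp past its edge, and such A-rich sequence can itself be primed by oligo(dT). It was the only one of the 68 combinations (1.47%, 95% Wilson interval 0.26 to 7.87) with so dense a stretch, against 4.01% of 133872 combinations over all protein-coding genes. Detected genes of similar length had a median of 9 intronic peaks (quartiles 6 and 13, 1249 genes), which placed the 3 of DDC at percentile 11.4. A further 4 intronic peaks of 5 to 7 reads did not pass the cutoff.

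DBH (ENSG00000123454.12, chr9:133636363-133659329, plus strand, 22.97 kb) had 3 peaks past the cutoff. The end peak (chr9:133659225-133659334) had 19 reads, the lowest of the tallest end peaks among the 8 genes. A lower peak of 11 reads (chr9:133658808-133659029) ended 300 bp before the annotated end, with all 1851 coding bases upstream of it and AGTAAA 25 bp before its edge. The tallest intronic peak, in intron 9, had 14 reads (chr9:133654099-133654222). It carried no hexamer on the DBH strand. On the opposite strand it carried 2 kinds besides AATAAA and lay 487 bp past the annotated end of DBH-AS1, an antisense transcript. With no strand in the list, the strand of this peak cannot be told.

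The enzymes were thus alike at their ends, with 23, 22 and 19 reads in TH, DDC and DBH. These heights sat at percentiles 43.9, 40.8 and 31.1 of the 12818 detected genes, whose tallest transcript-end peak had a median of 25 reads (quartiles 17 and 36). The heights give no order of expression, and in bulk RNA the share of cells with a transcript and its amount per cell cannot be told apart.

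**Figure D2:**
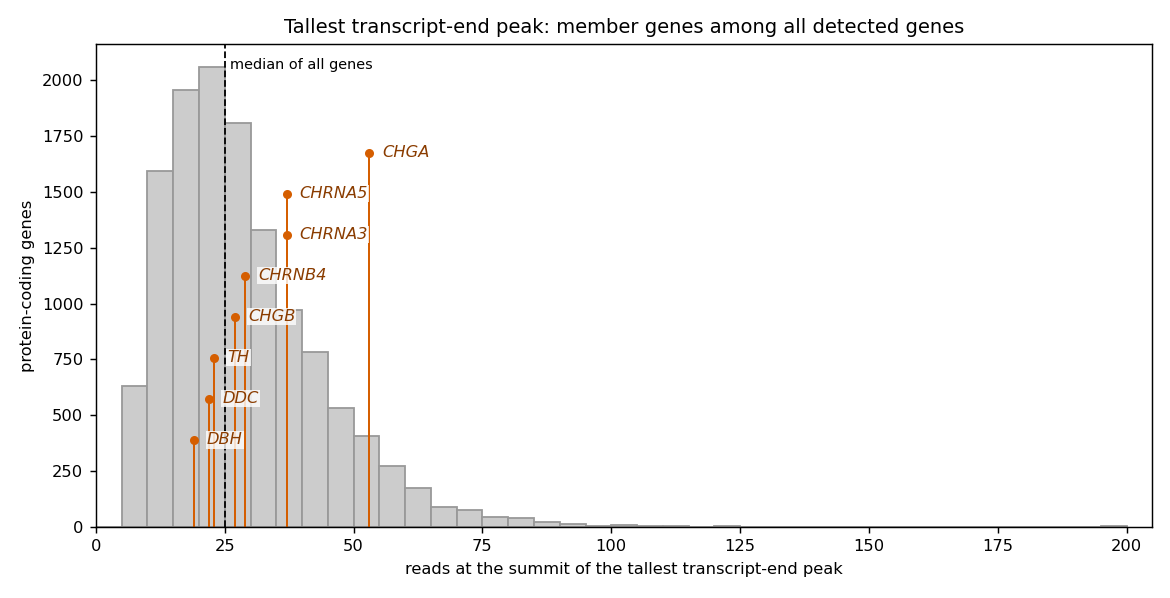
Tallest transcript-end peak of the 8 members that had one, among all detected protein-coding genes. The x axis is reads at the summit, the y axis is the number of genes per bin of 5 reads, the dashed line is the median of 25 reads and the height at which a member is labelled has no meaning. DBH, DDC and TH lie below the median, and CHGA, at 53 reads, lies furthest to the right.

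The vesicular monoamine transporters had no transcript-end peak. SLC18A1 (ENSG00000036565.15, chromosome 8, minus strand, 38.4 kb), the transporter of neuroendocrine cells, had 1 peak in the list, in intron 10. It had 5 reads and a −log10 q of 3.59, and so did not pass the cutoff. A gene with no listed peak may still be transcribed below what the peak caller retained, and the depth of the libraries is unknown.

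SLC18A2 (ENSG00000165646.14, chr10:117241093-117279430, plus strand), the transporter of aminergic neurons, had 5 peaks past the cutoff, none of them at its annotated end. Of all protein-coding genes, 12.9% had peaks past the cutoff but none at a transcript end. All 5 summits also lay in the window of a gene on the opposite strand, either PDZD8 or the non-coding gene ENSG00000277879. The intron 12 peak (chr10:117267121-117267225) had 8 reads and ended 5 bp before the annotated end of ENSG00000277879. Its AATAAA on that strand, printed above, started 24 bp before the edge, and the SLC18A2 strand had no hexamer there. A peak of 18 reads in the last exon of SLC18A2 (chr10:117277462-117277571) lay 1859 bp before the SLC18A2 end and 188 bp before a PDZD8 end. PDZD8 itself had no transcript-end peak past the cutoff, since the summit of this peak lay too far before that end. This peak of 18 reads is the last-exon site printed above. It had AATAAA 25 bp before the edge on the PDZD8 strand and TATAAA 19 bp before the edge on the SLC18A2 strand. The remaining 3 peaks lay past the SLC18A2 end, by 1178 bp (30 reads), 3028 bp (19 reads) and 3327 bp (36 reads). Between 15 and 35 bp before the edge, a hexamer was present on the opposite strand only at 2 of the 5 peaks, on both strands at 2 and on neither at 1, so none had it on the SLC18A2 strand alone. Which of the genes gave these reads cannot be told apart.

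CHGA had the highest end peak of the 10 genes and many peaks near its start. The gene (ENSG00000100604.13, chr14:92923150-92935285, plus strand) is 12.1 kb long. Its end peak (chr14:92935158-92935303) had 53 reads, at percentile 93.3 of the detected genes. The summit of this peak also lay in the window of ITPK1 on the opposite strand. Without peaks in opposite-strand windows CHGA had no end peak. Neither strand had a hexamer at the usual distance before the edge of this peak. CHGA also had 5 intronic peaks past the cutoff, with 34 reads (summit in intron 1), 39 and 28 reads (intron 2), 42 reads (intron 3) and 28 reads (intron 4). Their 3′ edges lay between 1.23 and 5.49 kb from the start, with 93 to 256 of the 1371 coding bases upstream. Transcripts that ended there would hold less than the full coding sequence. Detected genes of similar length had a median of 1 intronic peak (quartiles 0 and 2, 1217 genes), which placed CHGA at percentile 99.2. Per kb of intron CHGA had 0.549 peaks, against a median of 0.0956 over detected genes with an intron.

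These CHGA peaks were tall as well as numerous, but the cutoff is set against the local background, so peaks amid dense coverage need more reads to pass. An intronic CHGA peak of 15 reads, with 551 reads in the 10000 bp around it, had a −log10 q of 1.75 and did not pass. A CHRNB4 peak of 8 reads with 49 around it had 6.03 and passed. The percentiles of height that follow are therefore not independent of the cutoff. The lowest, with 28 reads, was at percentile 94.6 of all intronic combinations and the tallest, with 42 reads, at percentile 98.9. The latter (chr14:92926748-92926967) had AATAAA 28 bp before its edge, as printed above. In all, 3 of the 5 had a hexamer on the CHGA strand, and 2 had one between 15 and 35 bp before the edge. A further peak of 27 reads lay in an exon of a retained-intron transcript, inside intron 2 of the canonical one. The region was densely covered, with 544 to 609 reads in the 10000 bp around these 6 peaks against 305 around the end peak. Over all combinations the median was 100 reads. Such counts take in exons and the reads of the peaks themselves, so they do not measure intronic coverage alone. How far reads outside the peaks contributed to the intronic peaks was not tested.

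CHGB, the other granin, had 3 of its 5 peaks past the cutoff in the transcript-end class, 1 of them at the canonical end. The gene (ENSG00000089199.10, chr20:5911510-5925353, plus strand) is 13.8 kb long and had 1 intronic peak past the cutoff, at percentile 47.8 of 1324 genes of similar length. That peak, in intron 1 (chr20:5912881-5913173), had 21 reads, and AATAAA started 26 bp before its edge on the CHGB strand and 23 bp before its edge on the opposite strand. The canonical end peak (chr20:5925086-5925362) had 27 reads. Its summit also lay in the window of KANK1P1 on the opposite strand, and without such peaks the tallest CHGB end peak had 20 reads. There were 2 further transcript-end peaks, of 16 reads (418 bp past the end of a short non-coding transcript) and 20 reads (269 bp past the end of a shorter coding transcript). An exonic peak of 13 reads had 1909 of the 2031 coding bases upstream. The granins thus had canonical end peaks of 53 and 27 reads, and 5 and 1 peaks in the intronic class. That class leaves out a CHGA peak and a CHGB peak that lay inside a canonical intron.

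**Figure D3:**
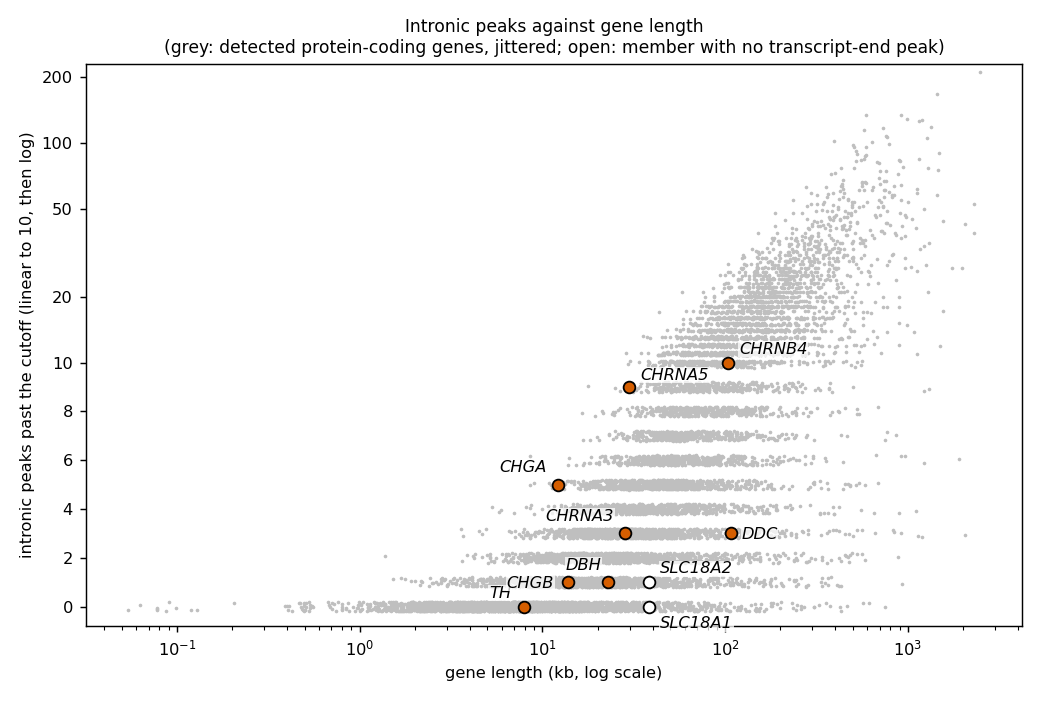
Number of intronic peaks past the cutoff against gene length. Grey points are the detected protein-coding genes, shifted slightly at random on the y axis, orange circles are members with a transcript-end peak and open circles are SLC18A1 and SLC18A2. The x axis is in kb on a log scale, and the y axis is linear up to 10 and logarithmic above. CHGA (5 peaks) and CHRNA5 (9 peaks) lie at the upper edge of genes of their length, and DDC (3 peaks) lies low. The 9 of CHRNA5 include 3 that also lie in the CHRNA3 window.

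The receptor genes lie together on chromosome 15. CHRNA5 is read on the plus strand, CHRNA3 converges on it from the minus strand, and CHRNB4 lies upstream of CHRNA3 on the minus strand. The products assemble in 1 receptor, in which CHRNA3 and CHRNB4 form the binding sites for acetylcholine and CHRNA5 is an accessory subunit.

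The 8 peaks between CHRNA5 and CHRNA3 could not be given to either gene by position. They had 25 to 41 reads. For CHRNA5 they counted as 3 intronic, 3 transcript-end, 1 exonic and 1 downstream peak, and for CHRNA3 as 2 intronic, 1 transcript-end, 1 exonic and 4 downstream peaks. A hexamer between 15 and 35 bp before the edge was present on the CHRNA5 strand only at 3 of them, on the CHRNA3 strand only at 2, on both at 1 and on neither at 2. The peak at chr15:78593052-78593261 had 37 reads, the tallest end peak of both genes. Its minus-strand edge fell 0 bp from the end of a longer CHRNA3 transcript, 2257 bp past the canonical end, and AATAAA started 26 bp before it. Its plus-strand edge fell 13 bp before the end of a CHRNA5 transcript, and the nearest hexamer on that strand, AATATA, started 49 bp before the edge. The next peak (chr15:78593470-78593694, 27 reads) ended 7 bp before another CHRNA5 transcript end, with AATATA 22 bp before its edge on the plus strand and none at that distance on the minus strand. The peak in CHRNA5 intron 4 (chr15:78589124-78589224, 26 reads) ended 1 bp before the annotated end of the minus-strand non-coding gene ENSG00000261762, with AATAAA 25 bp before that edge. The tallest of the 8, with 41 reads (chr15:78596250-78596548), lay in the last exon of CHRNA3 and 1279 bp past the CHRNA5 end, and neither strand had a hexamer at the usual distance.

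CHRNA5 (ENSG00000169684.13, chr15:78565520-78595269, 29.8 kb) had 15 peaks past the cutoff and no listed peak below it. Of the 7 outside the CHRNA3 window, 6 were intronic. The first intron held 5, with 15, 20, 32, 29 and 21 reads at 1.34, 1.74, 7.83, 11.3 and 14.8 kb from the start, and with 106 of the 1404 coding bases upstream. Only the 15-read peak had a hexamer on the CHRNA5 strand at the usual distance (AAGAAA at 27 bp and AATGAA at 31 bp). An exonic peak of 34 reads (chr15:78580812-78580940) had AATAAA 23 bp before its edge, and the intron 2 peak of 17 reads (chr15:78581623-78581724) had it 22 bp before. In total CHRNA5 had 9 intronic peaks of 15 to 35 reads, against a median of 3 (quartiles 1 and 4) in 1697 detected genes of similar length, at percentile 99.3. The 9 include 3 of the 8 peaks that could not be given to either gene. The percentile was not computed for the 6 outside the CHRNA3 window. The tallest (chr15:78591505-78591622) was 1 of the 8 in both windows, and had AATAAA 31 bp before its edge on the CHRNA5 strand and no hexamer on the CHRNA3 strand.

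CHRNA3 (ENSG00000080644.16, chr15:78593052-78621295, 28.2 kb) had 10 peaks, of which 2 lay outside the CHRNA5 window. A peak of 22 reads in intron 4 (chr15:78613252-78613355) had AATAAA 29 bp before its edge and 377 of 1515 coding bases upstream. A peak of 18 reads (chr15:78601156-78601418) counted as a transcript end because a transcript of the gene ends nearby, 620 bp before its edge. That transcript has no defined coding sequence, and the only hexamer of the peak, AAGAAA, started 6 bp before the edge. The canonical CHRNA3 end had no peak. Without peaks that also lay in a gene window on the opposite strand, the tallest CHRNA3 end peak was the 18-read one, and CHRNA5 had none.

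CHRNB4 (ENSG00000117971.12, chr15:78624111-78727754) had the most peaks, 28 in the list and 18 past the cutoff. Its gene body of 104 kb includes transcripts with no defined coding sequence that start far upstream, while the canonical transcript spans 17.1 kb. Of the 18 peaks, 11 lay upstream of the canonical start, and 10 of these also lay in the window of a non-coding gene on the opposite strand, ENSG00000290426. They included 9 of the 10 intronic peaks. The remaining intronic peak, of 23 reads (chr15:78632257-78632395), lay in intron 2, with 204 of 1494 coding bases upstream and repeated AAGAAA hexamers before its edge. The tallest intronic peak, of 28 reads (chr15:78642538-78642777), lay 1.33 kb before the canonical start. Detected genes as long as the whole gene body had a median of 9 intronic peaks (1261 genes), so the 10 of CHRNB4 were at percentile 55.5. The peak of 17 reads at the end of a short upstream transcript (chr15:78692579-78692734) had its edge 1 bp before that end and AATAAA 28 bp before the edge.

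The CHRNB4 end was followed by a run of peaks, 4 of 5 of them taller than its own. The transcript-end peak (chr15:78623802-78623908) had 29 reads. Past it came 5 downstream peaks of 39, 26, 80, 51 and 43 reads, with edges 724, 1081, 1448, 1782 and 2317 bp past the annotated end. Among the 4052 protein-coding genes with both a transcript-end and a downstream peak, 29.2% had a downstream peak as their taller one. The 80-read peak (chr15:78622663-78622893) was the tallest of all member peaks and stood at percentile 99.7 of the 7381 downstream combinations. Its only hexamer, CATAAA, started 60 bp before the edge. The 39-read peak had AATAAA 21 bp before its edge, and no other of the 5 had a hexamer at the usual distance on either strand. The last of them ended 499 bp before the CHRNA3 gene begins, and 598 to 645 reads lay in the 10000 bp around the end peak and these 5 peaks. No gene window on the opposite strand overlapped them.

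**Figure D4:**
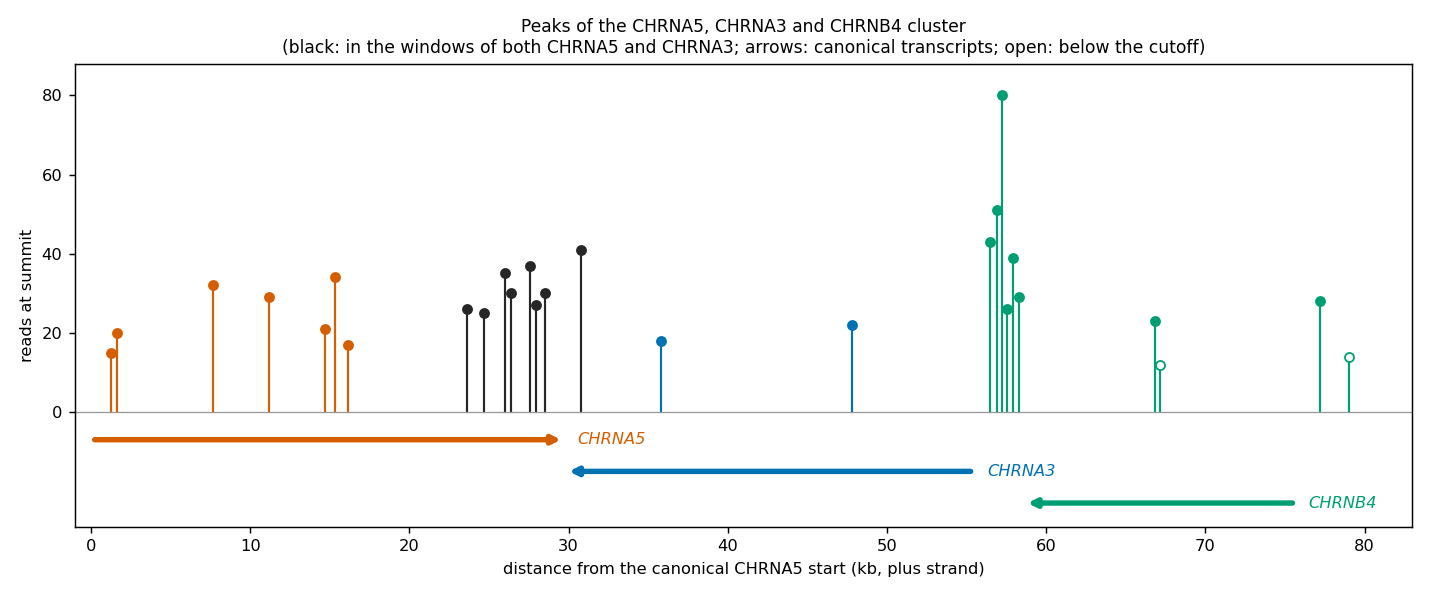
Peaks across the nicotinic receptor cluster. The x axis is the distance in kb from the canonical CHRNA5 start along the plus strand, the y axis is reads at the summit, arrows are canonical transcripts, black marks the 8 peaks in the windows of both CHRNA5 and CHRNA3 and open circles did not pass the cutoff. CHRNB4 peaks far upstream are not drawn. The run past the CHRNB4 end, up to 80 reads, stands between CHRNB4 and CHRNA3.

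Over the 68 combinations of gene and peak, 33 were intronic (48.5%, Wilson interval 37.1 to 60.2), against 64% over all 133872 combinations of protein-coding genes. CHGA, CHRNA5 and CHRNB4 held 24 of the 33. An intronic peak was found in 8 of the 10 genes, against 58.8% of all protein-coding genes, and in 7 of the 8 with a transcript-end peak, against 77.9% of detected genes. Transcript ends made up 15 (22.1%, 13.8 to 33.3), against 20.2%, and exons 7 (10.3%, 5.08 to 19.8), against 10.3%. Peaks 600 to 4000 bp past the end made up 13 (19.1%, 11.5 to 30.01), against 5.51%. These 13 came from 4 genes, SLC18A2, CHRNA3, CHRNA5 and CHRNB4, and in all protein-coding genes 26.1% had such a peak. For the first 3 of these genes, each such peak also lay in the window of an opposite-strand gene. Over all classes, 34 of 68 combinations (interval 38.4 to 61.6%) had the summit in an opposite-strand window too, against 22.8%. The intervals treat combinations as independent and cover counting error alone, although peaks of 1 gene share their transcripts.

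The 12 hexamers searched on both strands were AATAAA and 11 variants that change 1 of its letters. The first letter was changed in TATAAA as well as in GATAAA and also in CATAAA. The second was changed in ATTAAA as well as in AGTAAA and also in ACTAAA. The third was changed in AAGAAA, while the fourth was changed in AATGAA. The fifth was changed in AATATA as well as in AATAGA and also in AATACA. Overlapping matches were each counted. At least 1 was present on the gene strand at 40 of the 68 combinations (58.8%, 47.0 to 69.7), against 62.5%. AATAAA was present at 17 of them (interval 16.2 to 36.4%), against 30.5%. The opposite strand had a hexamer at 36 (52.9%, 41.2 to 64.3), against 44.1%. By class, 12 of 15 transcript-end combinations had one (interval 54.8 to 93.0%), against 79.2%. So did 5 of 7 exonic ones, against 68.6%, and 14 of 33 intronic ones (42.4%, 27.2 to 59.2), against 57.1%. Of the downstream ones, 9 of 13 (69.2%, 42.4 to 87.3) had one, against 52.9%. Between 15 and 35 bp before the edge, the members had a hexamer on the gene strand only at 19 combinations (27.9%), against 31.6%. They had it on the opposite strand only at 12 (17.6%, 10.4 to 28.4), against 9.27%, on both at 7 (10.3%), against 7.19%, and on neither at 30 (44.1%), against 51.9%. An A-rich stretch of at least 18 A in 25 bases was present at 4 (5.88%, 2.31 to 14.2) on the gene strand, against 19.6%, and at 4 on the opposite strand, against 2.77%. The members' peaks had a median of 25.5 reads, against 14, and a median of 261 reads in the surrounding 10000 bp, against 100. These medians rest on CHGA and the nicotinic genes, which hold most of the combinations. Peaks amid dense coverage also need more reads to pass the cutoff, so the 2 medians are not independent. The median in 10000 bp was 558 reads in CHGA and 525 in CHRNA5, but 79 in TH, 66 in DDC and 77 in DBH.

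The 4000 bp limit of the window fell close to a peak in few genes. The outermost peak inside lay 3916 bp past the CHRNA3 gene body (26 reads) and 3239 bp past that of SLC18A2 (36 reads). The nearest outside lay 4281 bp past DBH (9 reads) and 4585 bp past CHGA (32 reads).

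Other genes of the same pathway gave the frame for these heights. Of 40 such genes, 32 had a transcript-end peak past the cutoff, against 64% of all protein-coding genes. The tallest had a median of 23 reads (range 7 to 65). An intronic peak was found in 20, against 58.8%. There was no peak past the cutoff in 7, while 76.9% of all protein-coding genes had one. The 8 detected members had a median of 28 reads, and all detected genes had a median of 25. All 5 genes for tetrahydrobiopterin, the cofactor of TH, were detected, with 28 reads in GCH1, 28 in PTS, 27 in SPR, 54 in QDPR and 26 in PCBD1. Of the genes for later steps, MAOA had 24 reads and PNMT, which makes adrenaline, had 10, while MAOB had no peak. SLC6A2, the noradrenaline transporter of the cell surface, had 42 reads, and SLC6A3, the dopamine transporter, had no peak.

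Granule genes varied more widely. CYB561, which supplies electrons to DBH inside the granule, had 35 reads, and the 3 genes of the granule proton pump had 22 to 43. Of 11 genes for granule cargo, processing and release, 9 were detected, against 64% of all protein-coding genes. VGF had 65 reads, SCG2 57 and SCG5 7. Among 15 other nicotinic subunits and helpers, 11 were detected, near the same share of 64%. They had 7 to 30 reads, with CHRNA7 and the chaperone gene RIC3 at 30. CHRNA6, CHRNA9, CHRNB3 and CHRND had no peak. CHRNA3 and CHRNA5 stood at 37 reads through 1 peak in both windows. Without opposite-strand windows CHRNA3 had 18 reads and CHRNA5 no end peak. With the transcript-end window narrowed to 100 bp either side CHRNA5 had 27. The other nicotinic genes were not recomputed at these settings, so they are not ranked against these values.

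**Figure D5:**
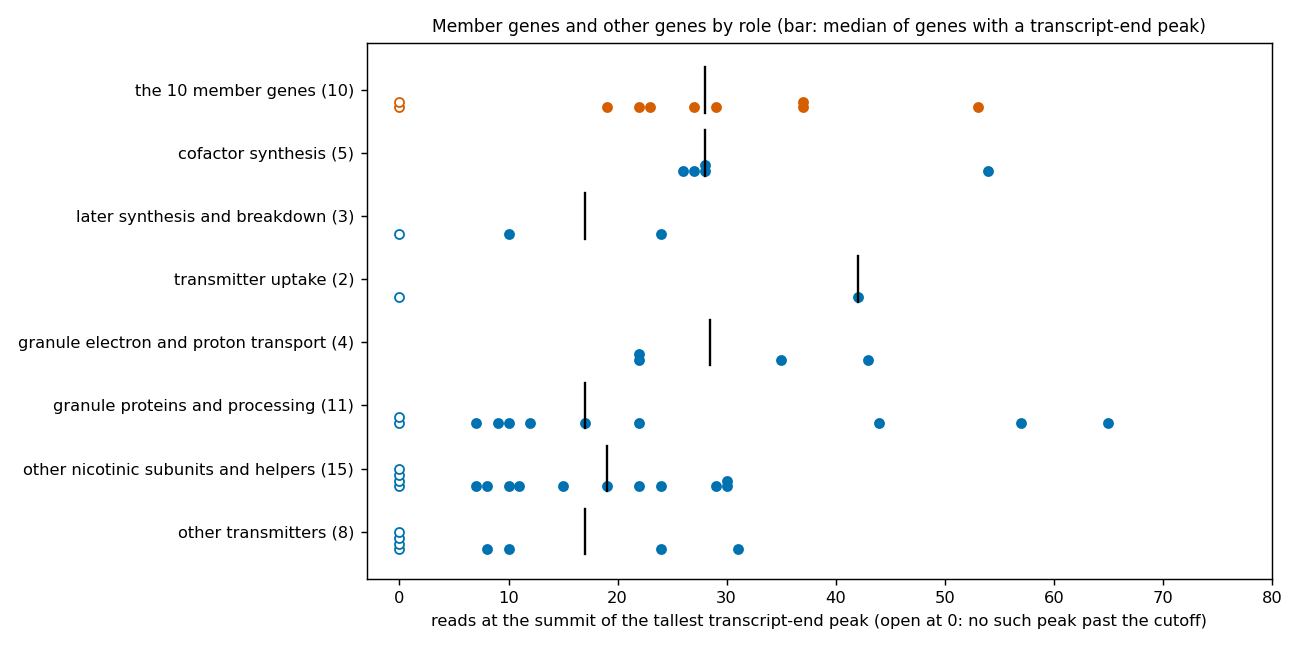
Tallest transcript-end peak of the 10 members (orange) and of 48 other genes by role, 8 of them for other transmitters (blue). The x axis is reads at the summit, the number of genes in each group is in brackets, open circles at 0 are genes without such a peak past the cutoff and the black bar is the median of the genes with one. The 5 cofactor genes lie between 26 and 54 reads, and other nicotinic genes reach 30.

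The markers of the cell line were present. All 8 regulators of adrenergic neuroblastoma searched had a transcript-end peak, against 64% of all protein-coding genes. Their tallest peaks had 42 to 123 reads, with PHOX2A the highest. Of 10 markers of other cell types, 2 had one (COL1A1 with 15 reads and EPCAM with 7), and 7 had no peak past the cutoff, among them PTPRC and ALB.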

How the data were processed

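Poly(A) 3′-seq reads of IMR-32 cells were trimmed by the authors, mapped to GRCh38 with STAR 2.5.1b (up to 20 placements per read, by the study's methods), merged over all samples (taken to be the 6 libraries) and given to MACS2 2.1.1 without a control. The deposited list gives each peak's fold enrichment (a ratio to the local background), its −log10 p-value and −log10 q-value, a score, which was not used here, and the summit offset, all as the authors' peak caller wrote them. It has no strand and no value per library, so depth per library is unknown.

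The number of reads at each summit and in the surrounding 10000 bp was solved from fold and −log10 p. On simulated data, 100% of 2265 peaks were recovered exactly. The background had a floor at 22.2% of peaks, for which no value in 10000 bp is given. Classes were assigned per gene in the order transcript end, exon, intron, downstream, with Gencode 44 (the study used 27). Hexamers were searched in the 100 bp ending at the 3′ edge, and A stretches in the 50 bp after it, on the gene's strand. Shares carry 95% Wilson intervals, which cover counting error only. No test was run. Python 3.11.15, pandas 2.3.3 and scipy 1.17.1 were used.

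All members were described, singly by their tallest transcript-end, intronic and downstream peaks. Further peaks were named after their values were seen. The members and gene lists were chosen with earlier results of these data known. Alternatives covered the q cutoff, the gene window, the transcript-end window, opposite-strand genes, merging, the hexamers and the A stretch. The authors' coverage tracks were not used here. A further gene of the pathway list is not reported here.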

Additional observations from a re-analysis of the deposited data

How the results depend on the processing

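No paired analysis was possible because each peak has 1 value for all libraries together, which also left no replicate to leave out. Among the alternatives run, the cutoff moved most: with −log10 q of at least 20 the member peaks fell from 60 to 9, genes with a transcript-end peak from 8 to 4, genes with a downstream peak from 4 to 2 and intronic combinations from 33 to 1, while the shares became 44.4% at transcript ends, 11.1% in introns, 88.9% with a hexamer and 0% with an A stretch. With all peaks of the list there were 52 intronic combinations. Without peaks also in an opposite-strand window there were 34 peaks, 18 intronic combinations and 1 gene with a downstream peak. The transcript-end share became 11.8% with a window of 100 bp either side and 8.82% with the canonical end only. The hexamer share became 44.1% in a window ending at the summit and 25% with AATAAA alone. Of the other values of this kind, 33 moved less than their interval or 1.5 times. With the canonical gene body only, chosen after seeing the data, 49 peaks and 24 intronic combinations remained. The tallest end peak fell from 37 to 18 reads in CHRNA3 without opposite-strand windows and from 29 to 17 in CHRNB4 with the narrow window. In each gene the lower value belongs to a different transcript end. The 17-read peak lies at the end of a short upstream transcript, and the canonical CHRNB4 end had no peak in the narrow window.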

Other observations

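Genes that mark other transmitters were also listed. CHAT, which makes acetylcholine, had a tallest transcript-end peak of 31 reads and SLC18A3, the vesicular acetylcholine transporter, of 24 reads. SLC18A3 lies inside CHAT on the same strand, so a peak there counts for both genes. TPH1 of serotonin synthesis had 8 reads and SLC17A7, a vesicular glutamate transporter, had 10. TPH2, GAD1 and GAD2 had no peak past the cutoff, and SLC17A6 had 2 intronic peaks and none at a transcript end.

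SCG3, a granin that binds CHGA, had 11 peaks past the cutoff, of which 8 were intronic and none lay at an annotated transcript end, as in SLC18A2. PCSK1, a granule protease, had no peak past the cutoff, and PCSK2 had a tallest end peak of 9 reads.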
